A study of Ananas comosus with 8 samples.

Results

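The genes described here are the 7 pineapple (Ananas comosus) genes that the study lists for the first carboxylation of crassulacean acid metabolism (CAM), picked by gene identifier from the 27024 genes of the deposited expression matrix. The study labels 3 of them phosphoenolpyruvate carboxylase (PEPC; Aco010025, Aco016429 and Aco018093), 2 PEPC-related (Aco022525 and Aco001261, named PEPC in the study's list of primers) and 2 PEPC kinase (PPCK; Aco013938 and Aco010095). All 7 had a row in the matrix. RNA-seq compared the green tip with the white base of the 'D' leaf of field-grown plants of the cultivar MD-2, with no treatment. The green tip (below, the tip) photosynthesises and the white base (the base) does not. According to the labels, 2 RNA-seq libraries were made from each tissue, and no time of day is given. The study had 2 libraries per tissue at a single, morning sampling time, but the labels do not tie the matrix to it. The authors deposited 1 FPKM value (fragments per kilobase, scaled to the library's mapped reads) per gene and tissue, so the spread between libraries is not known, no test was possible, and every difference below is a comparison of 1 value with 1 value. Levels are in FPKM, which is scaled to transcript length, so that genes can be compared within a tissue.

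PEPC adds bicarbonate to phosphoenolpyruvate and forms oxaloacetate, which malate dehydrogenase reduces to malate. In CAM leaves this step fixes carbon at night, and the malate is kept in the vacuole until the following day. Plants also carry PEPC isoforms with a housekeeping role, which refill the citric acid cycle. PPCK is a small protein kinase that phosphorylates PEPC and thereby lowers its inhibition by malate. In the CAM plant Kalanchoe its transcript is most abundant at night.

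The 2 columns differed in total and in composition. Over all genes, FPKM values added up to 1136440 at the tip and 611241 at the base, a ratio of 1.86, and the 100 highest genes held 50.0% of the sum at the tip against 18.7% at the base. Expressed genes were those above 0.5 FPKM, the limit of the study's methods, which left 17110 genes at the tip and 18096 at the base. The tissue labels were set against the carbonic anhydrase and pyruvate orthophosphate dikinase (PPDK) genes of the study's list of primers. All 3 beta carbonic anhydrase genes were at least 2-fold higher at the tip as deposited, with log2 ratios from 1.29 to 6.52. None of the 3 gamma carbonic anhydrase genes was, with log2 ratios of -0.11, 0.05 and -1.45. The study, which sampled several times of day, describes 2 gamma genes as high at the tip and low at the base. These values, 1 per tissue with no time of day given, do not show that. Of the PPDK genes, Aco024818 was at 5.87 and Aco014488 at 0.57. Of the alpha carbonic anhydrase genes with a mean over 0.5 FPKM, Aco007803 was at 3.09 and Aco016727 at -1.53. With both columns rescaled to the same sum, the beta gene Aco002732 was at 0.44 and Aco014488 at -0.16. Each value comes from bulk tissue, in which fewer cells that express a gene and less RNA per cell cannot be told apart.

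Aco010025 carried most of the PEPC transcript in both tissues. It had 633 FPKM at the tip and 239 FPKM at the base, a ratio of 2.65. In the green tip 150 genes of the matrix had a higher FPKM, and at the base 328. It was therefore among the most abundant transcripts of the base as well, where it stood above 98.2% of the expressed genes, against 99.1% at the tip.

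The other 2 PEPC genes were lower at the tip. Aco016429 had 7.59 FPKM at the tip and 41.2 FPKM at the base, 5.42 times as much. Aco018093 had 41.3 FPKM at the tip and 80.0 FPKM at the base, 1.93 times as much. By its place among the expressed genes of each tissue, Aco016429 differed the most of the 6 members that were expressed in both. It stood above 82.4% of the expressed genes at the base and above 37.0% at the tip. Aco018093 stood above 92.4% of them at the base and above 80.2% at the tip.

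The PEPC-related genes differed less between the tissues. Aco001261 had 61.5 FPKM at the tip and 44.7 FPKM at the base, a ratio of 1.38, and stood above 87.1% and 84.0% of the expressed genes. Aco022525 had 11.0 and 13.5 FPKM, 1.23 times as much at the base, and stood above 45.9% and 51.6% of the expressed genes. In both tissues Aco022525 was thus near the middle of the expressed genes, and Aco001261 was 5.60 times as high as Aco022525 at the tip and 3.32 times at the base.

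The kinase genes had the lowest levels of the 7. Aco013938 had 1.81 FPKM at the tip and 8.29 FPKM at the base, 4.58 times as much. It stood above 13.4% of the expressed genes at the tip and above 37.7% at the base. Aco010095 had 0.354 and 0.424 FPKM and was below the expression limit in both tissues. Because FPKM values carry no read numbers, it is not known how many fragments lie behind these low levels. Aco013938 made up 83.7% of the PPCK sum at the tip and 95.1% at the base.

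**Figure D1:**
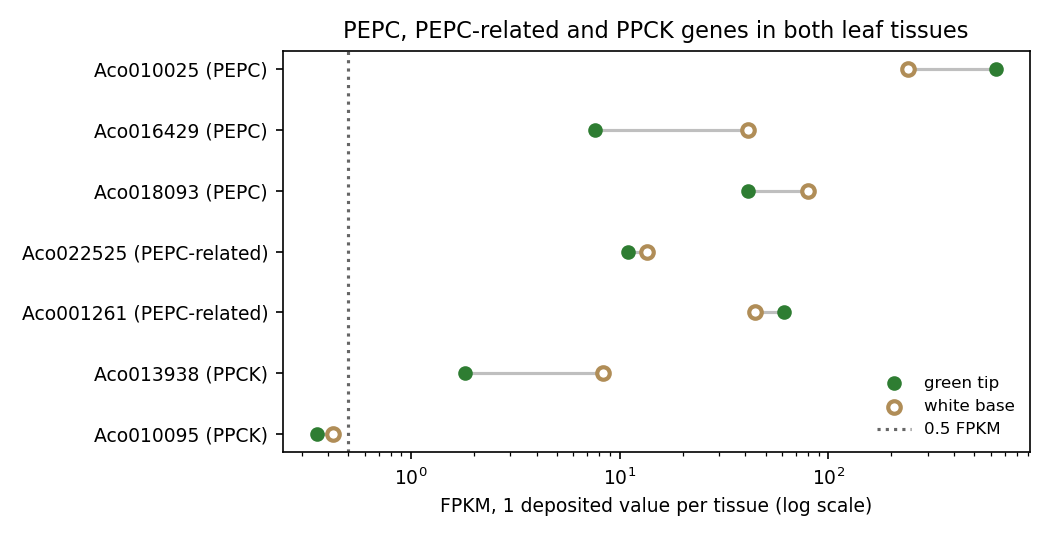
FPKM of the 7 genes on a log axis, with a filled point for the green tip, an open point for the white base and a dotted line at 0.5 FPKM; each point is 1 deposited value. Aco010025 and Aco001261 lie to the right at the tip, the other 5 genes lie to the right at the base, and Aco010095 is left of the line in both tissues.

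Of the 7 genes, 2 had a higher FPKM at the tip and 5 at the base. To set them against all genes, the log2 ratio of tip to base was taken on FPKM + 1, a scale that makes changes of low genes look smaller, where the mean was over 0.5 FPKM. This filter left 18372 genes and 6 of the 7 members. Aco010095, which did not pass, had a log2 ratio of -0.07 without the filter. Aco010025 alone was at least 2-fold higher at the tip, with a log2 ratio of 1.40, which was the case for 17.2% of all genes. Aco016429 and Aco013938 were at least 2-fold higher at the base, with -2.29 and -1.72, which was the case for 20.7% of all genes. The remaining 3 members lay within 2-fold, with -0.94 for Aco018093, -0.27 for Aco022525 and 0.45 for Aco001261. With 3 of 6 members past 2-fold beside 38.0% of all genes, a 2-fold difference between these tissues was common, and the counts do not set the members apart. The median log2 ratio was -0.60 over the 6 members and -0.0095 over all genes. The log2 ratio of Aco010025 was above that of 88.4% of the genes, and those of Aco016429 and Aco013938 were above that of 8.26% and 12.1%.

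**Figure D2:**
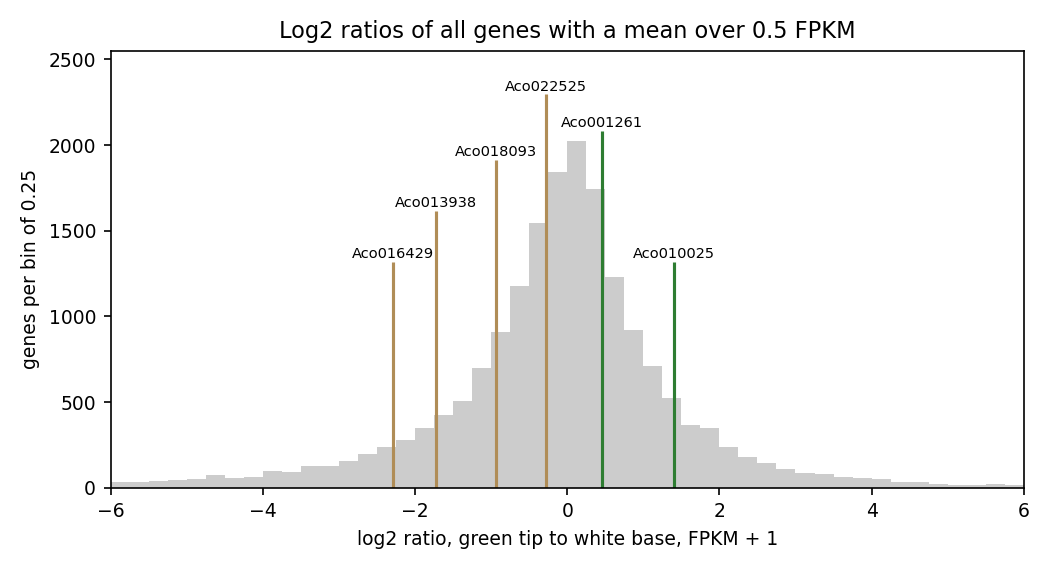
Number of genes in bins of 0.25 of the log2 ratio of tip to base on FPKM + 1, over the 18372 genes that passed the filter, of which 153 lie beyond a log2 ratio of 6 in size and are not shown. Lines mark the 6 members that passed the filter, with 2 on the tip side and 4 on the base side.

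How far each difference holds depends on how the columns are scaled. Rescaling each column to a sum of 1000000 (TPM) moves the log2 ratio by -0.89 before the pseudocount, and scaling to the same sum without the 100 highest genes of either tissue moves it by -0.18. Upper-quartile and median-of-ratios scaling move it by -0.02 and -0.0085. Aco016429 and Aco013938 stayed at least 2-fold higher at the base under all of these and under quantile normalization, with log2 ratios from -3.15 to -2.21 and from -2.49 to -1.37. The log2 ratio of Aco010025 remained above 0 under all of them, but was under 2-fold with TPM, at 0.51, and with quantile normalization, at 0.92. Aco018093 remained lower at the tip and passed 2-fold at -1.82, -1.08 and -1.12 after TPM rescaling, quantile normalization and scaling without the highest genes. Aco022525 was lower at the tip under each scaling and passed 2-fold after TPM rescaling, at -1.11. Aco001261 changed its direction after TPM rescaling, to -0.43. TPM rescaling also placed 42.0% of all genes at least 2-fold higher at the base and 8.97% at the tip.

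**Figure D3:**
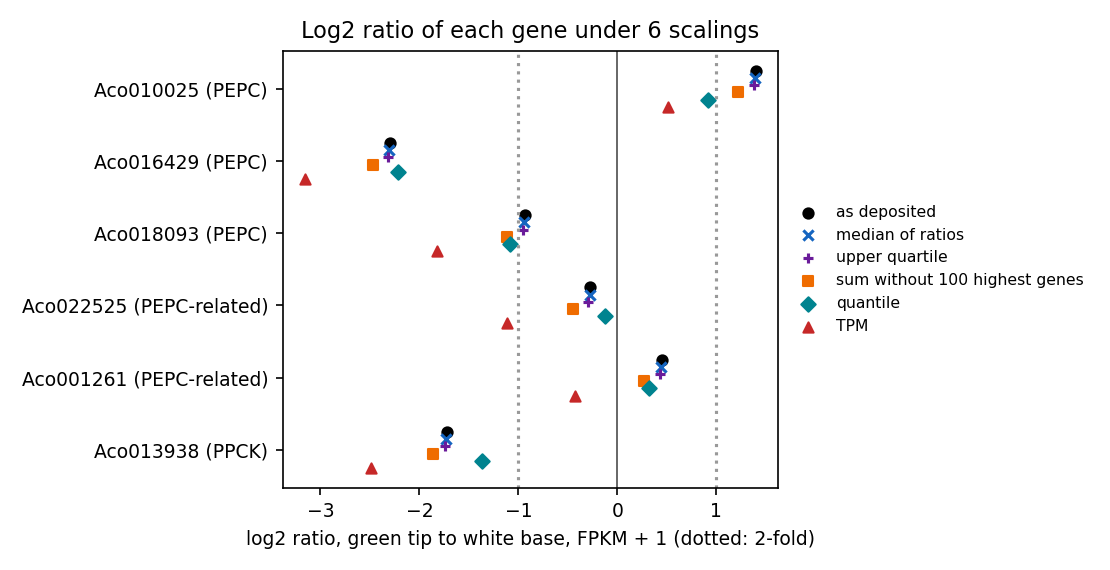
Log2 ratio of tip to base on FPKM + 1 for 6 genes (rows) under 6 scalings (symbols), with a solid line at 0 and dotted lines at 2-fold. The symbols of Aco016429 and Aco013938 all lie beyond 2-fold on the base side, those of Aco010025 lie between 0.51 and 1.40, and those of Aco001261 lie on both sides of 0.

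The share of each gene in the family sum does not change when a column is multiplied by a factor, as all of these scalings but quantile normalization do. The 5 PEPC and PEPC-related genes summed to 755 FPKM at the tip and 419 FPKM at the base. Aco010025 made up 83.9% of this sum at the tip and 57.2% at the base, a difference of 26.7 percentage points. Aco018093 made up 5.48% at the tip and 19.1% at the base, and Aco016429 1.01% and 9.83%. Of the PEPC-related genes, Aco001261 made up 8.15% and 10.7%, and Aco022525 1.46% and 3.22%. Within the 3 PEPC genes alone, Aco010025 made up 92.8% at the tip and 66.4% at the base. The effective number of genes, the inverse of the summed squared shares, was 1.40 of 5 at the tip and 2.59 of 5 at the base. The PEPC transcript was thus spread over more genes at the base, although Aco010025 led in both tissues.

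**Figure D4:**
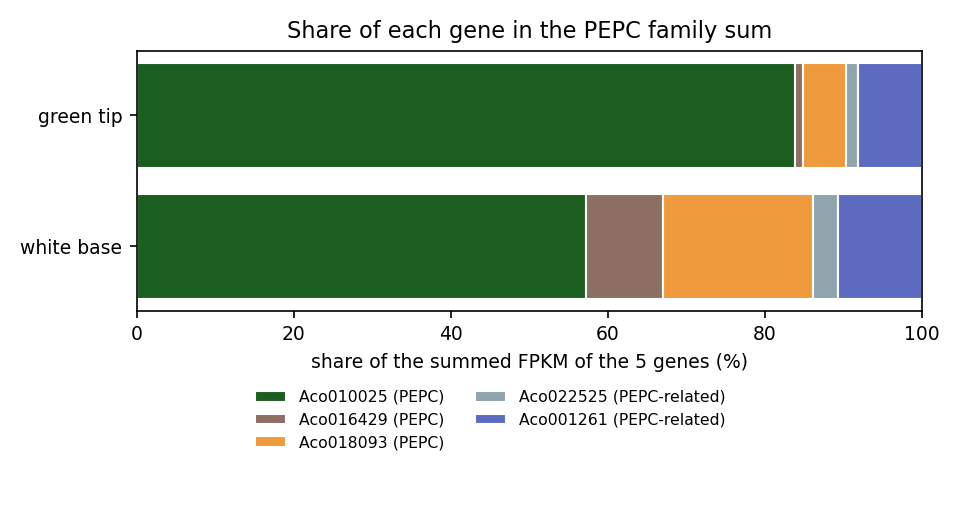
Share of each of the 5 PEPC and PEPC-related genes in their summed FPKM (percent, stacked bars) at the tip and the base, 1 deposited value per gene and tissue. The bar of Aco010025 fills 83.9% at the tip and 57.2% at the base, and those of Aco016429 and Aco018093 are wider at the base.

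As deposited, the family sum was 1.80 times as high at the tip, below the ratio of the column sums of 1.86. On the TPM scale it was therefore nearly the same, 664 at the tip and 685 at the base. Without Aco010025, the other 4 genes summed to 121 FPKM at the tip and 179 FPKM at the base, so that the remainder of the family was 1.48 times as high at the base. For the 2 PEPC genes other than Aco010025 the sums were 48.9 and 121 FPKM, 2.48 times as high at the base. As deposited, leaving out Aco010025 thus turned the direction of the family sum. On the TPM scale the full sum was already lower at the tip, and the other 4 genes were at 107 at the tip and 293 at the base. The 2 PEPC-related genes by themselves summed to 72.5 FPKM at the tip and 58.2 FPKM at the base, and in the opposite direction with TPM, 63.8 and 95.2.

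Ratios between members within a tissue are likewise free of the column scaling. Of the 21 pairs of members, 14 had a ratio that differed at least 2-fold between the tissues, and 2 changed their order. Of these 14 pairs, 3 involve Aco010095, which lies below the expression limit on average, and of the 15 pairs without it 11 differed at least 2-fold. Among all pairs that can be formed from 17648 genes (mean over 0.5 FPKM, above 0 at tip and base), 62.5% did, so that a share of this size is near the background. Aco010025 was 83.4 times as high as Aco016429 at the tip and 5.82 times at the base, the widest change among the pairs. It was 15.3 times as high as Aco018093 at the tip and 2.99 times at the base. The pairs that changed order each joined a PEPC gene to a PEPC-related gene. Aco018093 was 1.79 times as high as Aco001261 at the base, and Aco001261 was 1.49 times as high as Aco018093 at the tip. Aco016429 was 3.05 times as high as Aco022525 at the base, and Aco022525 was 1.45 times as high as Aco016429 at the tip. No spread between libraries is available for these ratios.

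The summed kinase level was lower relative to the summed enzyme level at the tip. No time of day is given for these values, and a change of this ratio over the day was not tested. For every 100 FPKM of the 5 PEPC and PEPC-related genes, the 2 PPCK genes had 0.287 FPKM at the tip and 2.08 FPKM at the base, a ratio 7.25 times as high at the base. Against the 3 PEPC genes alone, these values were 0.317 and 2.42 FPKM, and with Aco013938 as the only kinase against all 5 genes they were 0.240 and 1.98 FPKM. The 2 PPCK genes summed to only 2.16 FPKM at the tip and 8.71 FPKM at the base. With 1 FPKM added to each sum, the 2 PPCK genes had 0.419 and 2.31 FPKM per 100 FPKM of the 5 genes. Against Aco016429 alone the direction was the opposite, with 28.5 FPKM of the 2 PPCK genes per 100 FPKM at the tip and 21.2 FPKM at the base. As deposited, the summed PPCK level was 4.02 times as high at the base and the summed PEPC level 1.80 times as high at the tip. On the TPM scale PPCK was at 1.90 at the tip and 14.2 at the base. On that scale alone the difference in the ratio lay with the kinase, since PEPC was at 664 and 685. Under median-of-ratios scaling, upper-quartile scaling and scaling without the 100 highest genes, both sums differed. The log2 ratios were from -2.19 to -2.02 for PPCK and from 0.67 to 0.84 for PEPC. Single genes differed in this ratio. Aco010025 was 350 times as high as Aco013938 at the tip and 28.9 times at the base. Aco016429 was 4.20 times as high as Aco013938 at the tip and 4.97 times at the base, so that the ratio of this PEPC gene to this kinase gene differed by a factor of 1.18 between the tissues.

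The other genes of the carbon fixation module were taken from the study's list of primers, which holds 37 genes, 30 of them outside the PEPC and PPCK families. Of these 30, 27 had a mean over 0.5 FPKM, 10 of them at least 2-fold higher at the tip and 4 at the base, with a median log2 ratio of 0.23. With TPM they became 6 and 7, and the median became -0.61. The sum of each family was set against the sum of the 5 PEPC and PEPC-related genes of the same tissue, which again removes the scaling. The 14 malate dehydrogenase (MDH) genes, which include those that act on the product of PEPC, summed to 2.46 times the PEPC level at the tip and 1.77 times at the base. The 9 carbonic anhydrase genes summed to 0.664 and 0.289 times the PEPC level. Of these, the study, citing earlier work, takes only the beta genes as possible major proteins of carbon fixation. The 3 beta genes were at 0.496 and 0.0621 times the PEPC level, and the 3 alpha genes at 0.0621 and 0.0164 times.

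Of the families in the list, 2 belong to the daytime steps. Their sums differed in direction relative to the PEPC sum, but single genes did not all follow their family. As deposited, both family sums were higher at the tip, with 402 and 9.39 FPKM for PPDK and 189 and 134 FPKM for malic enzyme. The 2 PPDK genes, which return pyruvate to phosphoenolpyruvate, summed to 0.532 times the PEPC level at the tip and 0.0224 times at the base. The 5 malic enzyme genes, which release carbon dioxide from malate, summed to 0.25 and 0.319 times the PEPC level. Aco009967 (1.51 and 27.1 FPKM), Aco007622 (4.94 and 15.4) and Aco005989 (0 and 0.326) were higher at the base. Aco005631 and Aco016569 (15.3 and 12.9) were higher at the tip. As deposited, the log2 ratio was 1.09 for Aco005631 and 0.57 for the PPDK gene Aco014488, beside 0.85 for the PEPC sum. Relative to PEPC, these 2 genes thus went against their family. Outside these daytime steps, the 2 PPCK genes summed to 0.00287 times the PEPC level at the tip and 0.0208 times at the base. The 3 gamma carbonic anhydrase genes, counted above with the other carbonic anhydrases, were by themselves at 0.106 and 0.210 times. The leading gene of the MDH family, Aco013935, had 845 FPKM at the tip and 251 FPKM at the base, and that of the PPDK family, Aco024818, had 396 and 5.81 FPKM. The beta carbonic anhydrase that led at the tip, Aco005402, had 198 and 9.68 FPKM, and the leading malic enzyme, Aco005631, 167 and 77.8 FPKM. The leading alpha and gamma carbonic anhydrases, Aco007803 and Aco014975, had 46.7 and 4.60 FPKM and 57.7 and 62.5 FPKM.

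**Figure D5:**
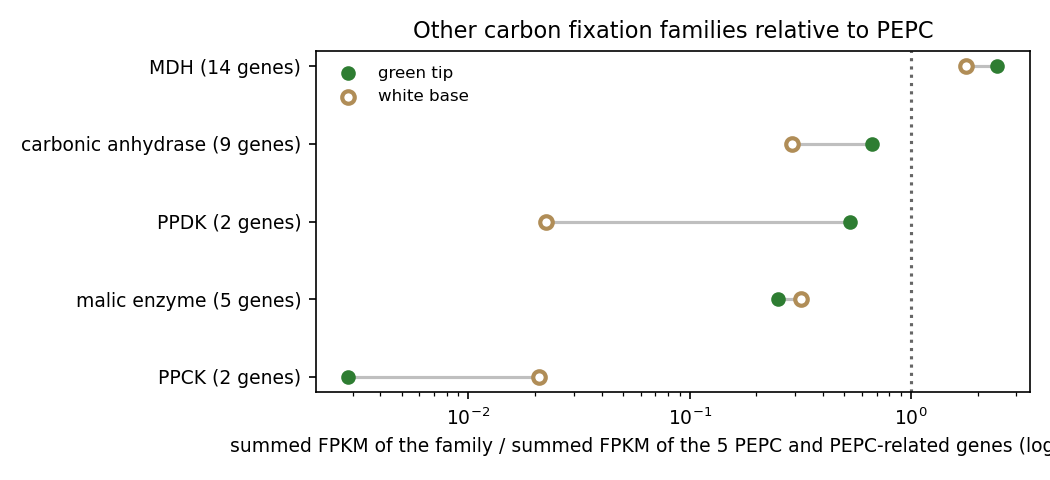
Summed FPKM of 5 other carbon fixation families divided by the summed FPKM of the 5 PEPC and PEPC-related genes of the same tissue, on a log axis, with filled points for the green tip, open points for the white base and a dotted line at 1. MDH, carbonic anhydrase and PPDK lie further right at the tip, malic enzyme and PPCK further right at the base.

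For each member, the gene of another family in the list with the nearest pair of levels was found, by the distance on log2(FPKM + 1) over the 2 tissues. For Aco010025 this was the MDH gene Aco013935, at a distance of 0.42. Within a distance of 0.25 of Aco010025 lay 1 other gene of the matrix, whereas 23 genes lay that close to Aco016429, 55 to Aco018093 and 53 to Aco013938. For Aco001261, Aco022525 and Aco010095 there were 158, 321 and 371. Few genes thus shared the level of Aco010025, which adds little to its rank. Only 150 genes at the tip and 328 at the base had a higher FPKM. Aco001261 was nearest to the MDH gene Aco002885, with 60.7 and 43.4 FPKM, at a distance of 0.05, and Aco022525 to the MDH gene Aco004349, with 11.6 and 10.4 FPKM. Aco016429 had its nearest gene in the MDH gene Aco014690 at a distance of 1.22, the largest of the 7, with 16.8 FPKM at the tip and 26.4 FPKM at the base. Aco018093 and Aco013938 were nearest to the gamma carbonic anhydrase genes Aco014975 and Aco017803, the latter with 1.41 and 5.58 FPKM. Aco010095 was nearest to the MDH gene Aco019631, with 0.317 and 0.344 FPKM. A likeness over 2 values describes the levels only.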

How the data were processed

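RNA-seq and bisulfite sequencing libraries were labelled by tissue, 2 per tissue for each assay. No bisulfite sequencing file was analysed here. Per the labels, RNA libraries were made from polyA-selected mRNA. For RNA-seq, the study's methods state trimming with Trimmomatic, alignment with HISAT2, uniquely mapped reads and StringTie, whereas the submitters' processing notes list TopHat2 2.1.0, Cufflinks and Cuffdiff 2.2.1. Which of these made the matrix, and how the authors combined the 2 libraries of a tissue into the deposited FPKM value, is not given in the sources used here. The matrix has 3 columns, green tip, white base and their mean, and the mean was not used. The depth behind the FPKM values is unknown, so no interval or detection limit is given.

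Ratios used a pseudocount of 1 FPKM and a filter on the mean of 0.5 FPKM. Shares and ratios within a tissue used no pseudocount, and the kinase ratio was also taken with 1 FPKM added to each sum. The planned limma fit for separate libraries was not applicable. Alternatives were TPM, median-of-ratios and quantile scaling, no filter, a filter at 1 FPKM, a pseudocount of 0.1, a 1.5-fold criterion, other gene sets for the shares and the kinase ratio, shares of log2(FPKM + 1) and percentiles among all genes above 0. Upper-quartile scaling, scaling without the 100 highest genes and the scaling of family sums were chosen after seeing the data. Members and lists were chosen with earlier results of these data known. Genes named were the 7 members, the gene of each other family with the highest summed FPKM, and the nearest gene of the list to each member. Named in addition were further carbonic anhydrase and PPDK genes, set against the tissue labels, and the other malic enzyme genes. Gene names are the study's, since 0 of the 27024 identifiers matched the RefSeq table used here. The code was tested on simulated data. Both simulated columns had the same starting profile, so a difference in composition like that between these tissues was not covered. Python 3.11.15, numpy 2.4.6, pandas 2.3.3 and matplotlib 3.10.9 were used.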

Additional observations from a re-analysis of the deposited data

How the results depend on the processing

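Log2 ratios were judged against 2-fold, and counts, shares, kinase ratios and percentiles against a factor of 1.5. No paired analysis was possible because each tissue has a single column, which also meant that no library could be left out. TPM rescaling took the log2 ratio of Aco010025 to 0.51, of Aco018093 to -1.82, of Aco022525 to -1.11 and of Aco001261 to -0.43, and that of the summed PEPC and PEPC-related FPKM to -0.045 from 0.85. It gave 1648 genes at least 2-fold higher at the tip (3169 as deposited) and 7725 at the base (3812 as deposited), and 6 and 11 genes of the carbon fixation list with the members included (11 and 6 as deposited). These shifts follow from its construction, a factor on each column. Quantile normalization took Aco010025 to 0.92 and Aco018093 to -1.08, and scaling without the 100 highest genes took Aco018093 to -1.12. The summed PEPC and PEPC-related FPKM stayed higher at the tip under median-of-ratios scaling, upper-quartile scaling and scaling without the highest genes, at 0.84, 0.83 and 0.67. A criterion of 1.5-fold gave 4848 genes higher at the tip. A pseudocount of 0.1, both filters, median-of-ratios and upper-quartile scaling left the direction and side of 2-fold of the 6 members as they were, which for the filters is by construction.

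Shares of log2(FPKM + 1), which weight high genes less by construction, were 34.0%, 11.3%, 19.7%, 13.1% and 21.8% at the tip for Aco010025, Aco016429, Aco018093, Aco022525 and Aco001261. In the white base they were 27.3%, 18.6%, 13.3% and 19.0% for Aco010025, Aco016429, Aco022525 and Aco001261. Among all genes above 0, Aco013938 stood above 24.7% at the tip. The other shares, kinase ratios and percentiles moved by less than 1.5 times.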
